A study of Mus musculus with 10 samples.

Results

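Epithelial exit was followed through 10 genes, namely the cadherins Cdh1 (E-cadherin), Cdh2 (N-cadherin), and Cdh11, the epithelial adhesion molecule Epcam, the intermediate filament Vim (vimentin), and the transcription factors Snai1, Snai2, Twist1, Zeb1, and Zeb2. They were looked up by symbol in the matrix of stage means that accompanies the count tables, and were chosen with earlier results of these data known. All 10 of the 10 symbols were found among its 15686 genes, out of 55487 genes in the count tables, and all 10 passed the filter on low counts that left 22596 genes for testing. Between ES cells and FLK1+ cells, Cdh1 fell 62.1-fold (-5.96 on the log2 scale, and -5.33 or -7.04 with 1 FLK1+ library left out) and Epcam 13.6-fold, while Cdh2, Cdh11, Vim, Snai1, Twist1, Zeb1, and Zeb2 rose. Snai2 rose a stage later. Vim reached its highest mean in HE1, and Zeb2 stayed high to the end of the series. The 2 libraries of HE1 differed by 4.88-fold in Cdh1 and by 3.69-fold in Epcam.

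ES cells grow as tightly joined colonies that are held together by E-cadherin, whose cytoplasmic tail is linked by catenins to actin. When such cells form mesoderm they pass through an epithelial to mesenchymal transition, in which E-cadherin is lost, N-cadherin is gained, and vimentin replaces keratins as the main filament. Factors of the SNAIL, TWIST, and ZEB families are known for driving this switch. SNAIL and ZEB proteins bind E-box sequences through zinc fingers and repress genes such as Cdh1. The blood lineage goes through a second change of shape later on, when round cells bud from a flat endothelial layer.

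Nuclear RNA of HM-1 cells, an established mouse ES cell line, was sequenced after depletion of rRNA. ES cells were sampled undifferentiated on gelatin with LIF. HB (hemangioblast) cells carried FLK1 and came from embryoid bodies grown in serum for 3 d. HE1 (KIT+ TIE2+ CD41-) and HE2 (KIT+ TIE2+ CD41+) are both stages of hemogenic endothelium, and HP (KIT+ TIE2- CD41+) are hematopoietic progenitors, and all 3 were sorted once a blast culture of 2.5 d had followed. Each stage was sequenced as 2 libraries, 10 in total, from 1 line and without any genetic change that set the stages apart. The media differed, since ES cells grew with LIF and the blast culture was given VEGF, an interleukin, and conditioned medium. Stage and medium therefore cannot be told apart from ES to HB or from HB to HE1, whereas HE1, HE2, and HP shared a medium. The study describes the replicates of a stage as biologically independent. The sources used here do not say whether they were separate differentiations, so p-values measure only the spread between these libraries. Totals per library lay between 24920434 and 58782055 counts, and 3 counts, taken as the floor, equal 0.0532 to 0.126 CPM (counts scaled to library size). The floor and the counting intervals below cover counting error only. In these sorted bulk populations, fewer cells of a type and less RNA per cell cannot be told apart.

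Markers of the sorted stages were highest in the stages that bear the names, and 1 library stood apart. The summed level of 8 endothelial markers was 202 to 209.5 CPM in ES, 1332 to 1636 in HB, 2755 to 4560.2 in HE1, 1757 to 2962 in HE2, and 863 to 933 in HP. The summed level of 8 hematopoietic markers was at most 286 CPM in any ES, HB, or HE1 library and 827 to 1179.9 CPM in HE2 and HP. RNA of the sort antigens was also found in stages sorted as negative for them. Itga2b, which encodes CD41, was at 227 and 127 CPM in HE1 (CD41-), most of the hematopoietic sum there, against 367 to 505 CPM in HE2 and HP, and Tek, which encodes TIE2, was at 61.5 and 64.2 CPM in HP (TIE2-), against 159 to 564 in HE1 and HE2. The summed level of 8 pluripotent markers was 3831 to 3862 CPM in ES and 428 to 444 in HB. It was 10.4 CPM in HE1 replicate 1 but 105 in HE1 replicate 2, against 3.72 to 10.5 in HE2 and HP. Calls of the 10 genes that were gained or lost without the second HE1 library are therefore given both ways.

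**Figure D1:**
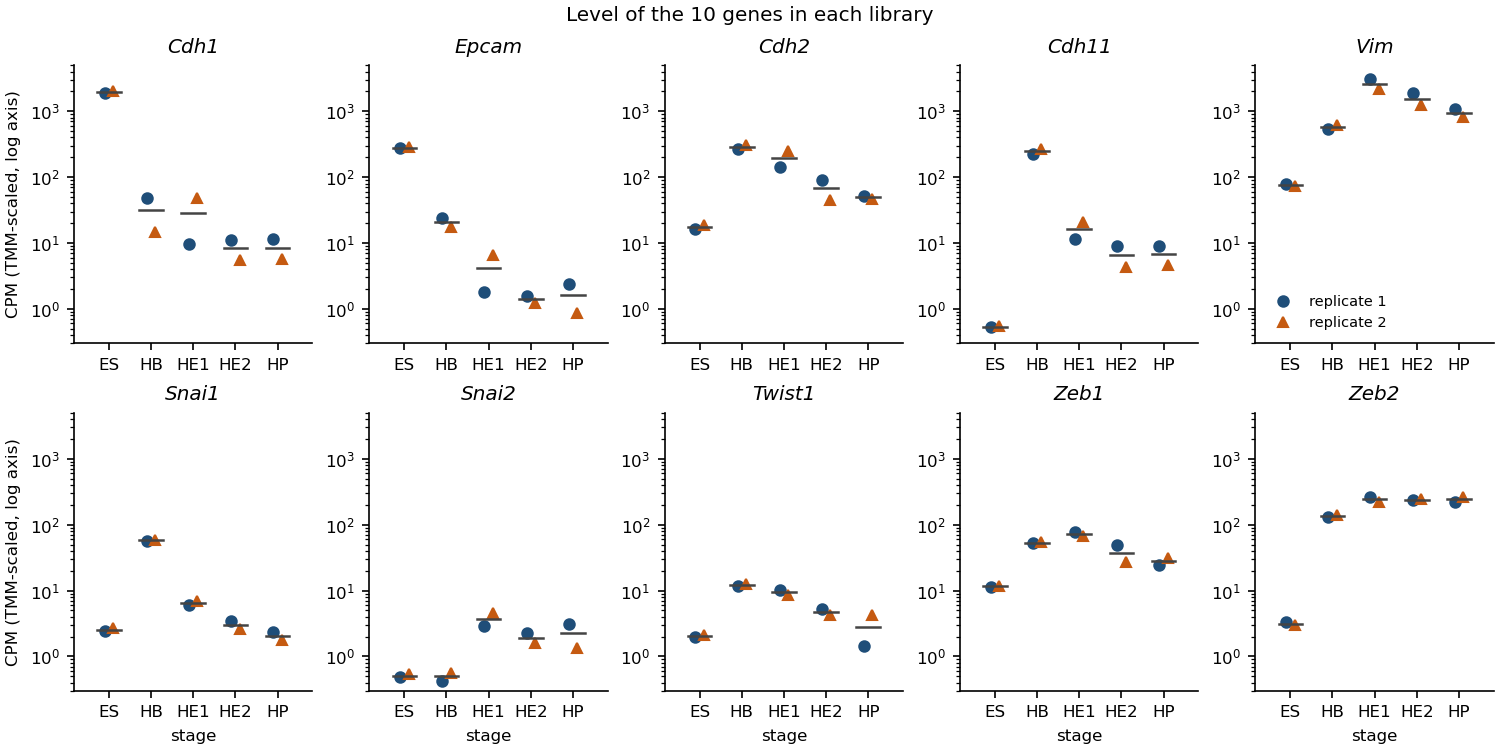
The level of each of the 10 genes (TMM-scaled CPM, log axis) in each library of ES, HB, HE1, HE2, and HP, with circles for replicate 1, triangles for replicate 2, and bars for the mean of 2. Cdh1 and Epcam drop from ES to HB, the libraries of HE1 part widely for Cdh1 (9.8 and 48.1 CPM), and Zeb2 lies at 129 CPM or higher in every library after ES.

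Cdh1 encodes E-cadherin, the adherens junction protein of epithelia and of ES colonies, and lies at chr8:106603351-106670246 on the plus strand of GRCm38. Its level was 1927 and 2004 CPM in ES, 48.8 and 14.6 in HB, then 9.8 and 48.1 in HE1, then 11.2 and 5.46 in HE2, and lastly 11.4 and 5.66 in HP (replicates 1 and 2). The ES libraries stood far above the other 8, whereas the libraries of HB, HE1, and HP overlapped with their neighbors in the order of the means. From ES to HB, Cdh1 changed by -5.96 on the log2 scale (SE 0.827, 95% interval -7.79 to -4.12, adjusted p = 0.000279). It was -7.04 without HB replicate 1 (adjusted p = 0.00106) and -5.33 without HB replicate 2 (adjusted p = 0.00324). From HB to HE1 the change was -0.12 (95% interval -1.63 to 1.39, adjusted p = 0.911), and its direction depended on single libraries. It was -1.69 without HE1 replicate 2, 0.56 without HE1 replicate 1, and 0.93 without HB replicate 1. No later step passed the test, with -1.80 from HE1 to HE2 (adjusted p = 0.105) and 0.05 from HE2 to HP (adjusted p = 1). The value from HE1 to HE2 also rested on single libraries, being -0.24 without HE1 replicate 2 (adjusted p = 0.88) and -2.51, a call, without HE1 replicate 1 (adjusted p = 0.0201). Cdh1 was not at the floor at the end of the series, since its lowest library still held 172 counts.

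Epcam, a surface glycoprotein of epithelia that is also abundant in pluripotent cells, lies at chr17:87635979-87651129 on the plus strand. It was at 276 and 286 CPM in ES, 23.6 and 17.7 in HB, then 1.77 and 6.67 in HE1, then 1.58 and 1.24 in HE2, and lastly 2.35 and 0.858 in HP. The ES, HB, and HE1 libraries did not overlap, so that Epcam was lost in more than 1 step. On the log2 scale it fell by 3.77 into HB (SE 0.489, adjusted p = 0.000178) and fell by 2.26 into HE1 (SE 0.488, adjusted p = 0.00623). The second change was -3.54 without HE1 replicate 2 and -1.67 without HE1 replicate 1. The change from HE1 to HE2 did not pass the test (-1.60, adjusted p = 0.0741). It was -0.32 without HE1 replicate 2 and -2.21, a call, without HE1 replicate 1 (adjusted p = 0.00783).

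The stretch before the Epcam start is shown because it holds the letters CACCTG, which SNAIL and ZEB proteins bind and which read CAGGTG on the other strand. Of the 5 genes with a searched window, Epcam and Snai1 were the 2 with a match, and only their windows are printed. Pearson's r of Epcam over the 10 libraries was 0.17 with Snai1, -0.71 with Snai2, -0.59 with Zeb1, and -0.92 with Zeb2. An action of these factors on Epcam was not tested. The 250 bases upstream of the RefSeq start (GRCm38.p6, chr17:87635729-87635978, plus strand) are given 5′ to 3′ with both forms of the motif in capitals.
Epcam: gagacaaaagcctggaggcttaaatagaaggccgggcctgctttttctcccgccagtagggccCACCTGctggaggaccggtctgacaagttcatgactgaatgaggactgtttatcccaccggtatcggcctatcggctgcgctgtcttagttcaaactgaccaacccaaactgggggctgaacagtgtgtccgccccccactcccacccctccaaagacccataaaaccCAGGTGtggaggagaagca
The window held 2 matches, whose first bases lie 187 and 19 bases before the start. Of 32851 RefSeq windows of the same length, 17.2% held at least 1 match and 2.06% held 2 or more. A match describes letters and does not show that a factor was bound.

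Cdh2 encodes N-cadherin, the cadherin of mesoderm, neural tissue, and heart, and it showed the opposite course to Cdh1 at the first step. It was at 16.2 and 18.8 CPM in ES, 272 and 307 in HB, then 144 and 249 in HE1, then 90.7 and 44.2 in HE2, and lastly 52.3 and 46.6 in HP. Its highest stage was HB, the HE2 and HP libraries overlapped, and even these stayed above ES. Cdh2 rose by 4.05 on the log2 scale from ES to HB (16.6-fold, SE 0.355, adjusted p = 1.46e-05) and changed by -0.56 from HB to HE1 (adjusted p = 0.193). It fell by 1.54 from HE1 to HE2 (SE 0.32, adjusted p = 0.0175) and by 1.99 from HE1 to HP (SE 0.325, adjusted p = 0.00201). The fall to HE2 was not called without HE1 replicate 2 (-1.10, adjusted p = 0.104) or without HE2 replicate 2 (-1.10, adjusted p = 0.0969), and it was -2.13 without HE2 replicate 1.

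Cdh11, a cadherin of mesenchymal cells, marked HB more sharply than Cdh2 did. Its level was 0.532 and 0.545 CPM in ES, 227 and 272 in HB, then 11.4 and 20.8 in HE1, then 8.87 and 4.38 in HE2, and lastly 9.08 and 4.55 in HP. The HB libraries exceeded those of all other stages by more than 10-fold, and ES was lowest. The rise into HB was 8.85 on the log2 scale (461-fold, SE 0.54, adjusted p = 1.56e-06), on 30 and 19 counts in ES, and was the widest change of the 10 genes in any of the 5 comparisons. Cdh11 then fell by 3.95 into HE1 (15.4-fold, SE 0.409, adjusted p = 9.45e-05). Between HE1 and HP it fell by 1.23 (adjusted p = 0.0395), a call that was lost without HE1 replicate 2 (-0.73, adjusted p = 0.304) or HP replicate 2 (-0.81, adjusted p = 0.178). It was also lost without either HB library, with little change in size (-1.21, adjusted p = 0.0568 and 0.0576).

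The switch between cadherins was set out as a ratio within each library, with counts divided by exonic length so that genes can be compared. Per exonic kilobase, the log2 ratio of Cdh2 to Cdh1 was -7.71 and -7.55 in ES, 1.66 and 3.57 in HB, then 3.05 and 1.55 in HE1, then 2.20 and 2.19 in HE2, and lastly 1.37 and 2.21 in HP. Cdh1 was thus the larger in both ES libraries and Cdh2 the larger in all 8 later ones. The mean shifted from -7.63 ± 0.12 in ES to 2.61 ± 1.35 in HB (SD, n = 2), and the means of HB, HE1 (2.30 ± 1.06), HE2 (2.19 ± 0.01), and HP (1.79 ± 0.59) lay within the spread of HB. With 2 libraries a side, the two-sided exact permutation test over libraries cannot give a p below 0.333, and these ratios are given as values with no test. The ratio of Cdh11 to Cdh1 took another path, since it was above 0 in HB alone (1.26 and 3.25) and between -0.74 and -2.17 in HE1, HE2, and HP. Cdh2 and Cdh11 were close in HB, with a log2 ratio of 0.36 ± 0.06 (SD, n = 2), and Cdh2 led by 3.76 ± 0.05 in HE1. Cdh2 RNA was therefore the highest of these 3 cadherins by level per length in both libraries of HB, HE1, HE2, and HP.

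**Figure D2:**
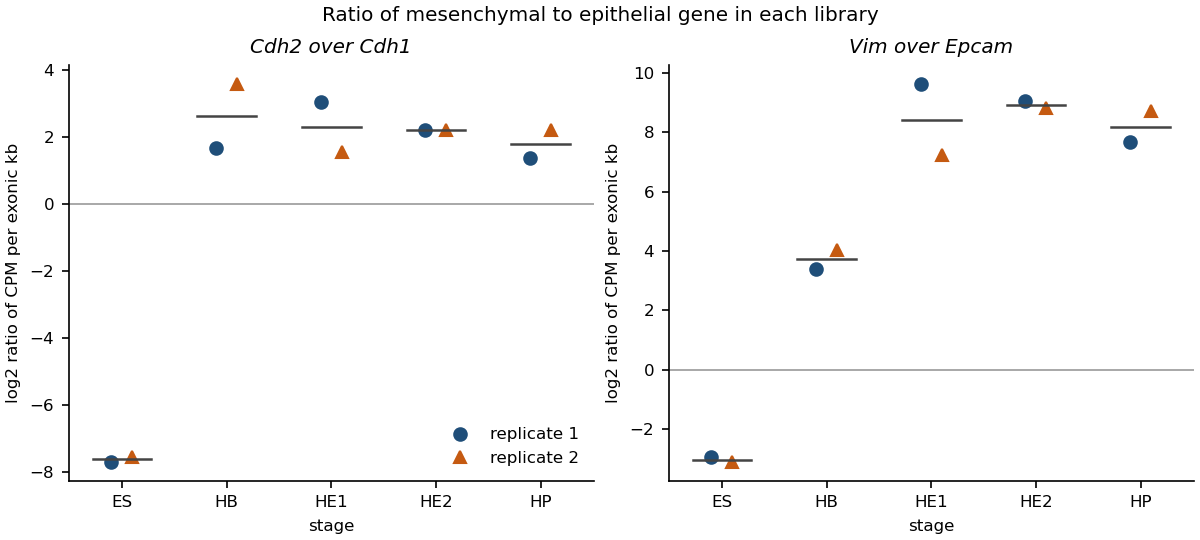
The log2 ratio of Cdh2 to Cdh1 (left) and of Vim to Epcam (right), from CPM per exonic kilobase, in each library of the 5 stages, with circles for replicate 1, triangles for replicate 2, and bars for the mean. Both ratios are below 0 in ES and above 0 in all later libraries, and the 2 HE1 libraries differ in both (3.05 and 1.55 on the left, 9.62 and 7.23 on the right).

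Vim, the filament protein of mesenchymal, endothelial, and blood cells, rose over more than 1 step. It was at 78 and 72.1 CPM in ES, 543 and 625 in HB, then 3092 and 2179 in HE1, then 1878 and 1247 in HE2, and lastly 1066 and 827 in HP. No 2 stages that follow each other in the order of the means overlapped, and HE1 was highest. Vim rose by 2.96 into HB (SE 0.266, adjusted p = 1.68e-05) and by a further 2.17 into HE1 (SE 0.257, adjusted p = 0.000203) on the log2 scale, and it fell by 1.48 from HE1 to HP (SE 0.251, adjusted p = 0.00245). In HP it still exceeded HB, at 946 ± 169 against 584 ± 57.8 CPM (SD, n = 2), a pair of stages that was not tested. The summed endothelial markers given above were likewise highest in HE1 and lower in HE2 and HP, and their part in the Vim values was not tested.

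Of the transcription factors, Snai1 was the one most restricted to HB. Snai1 encodes SNAIL, a zinc finger repressor of Cdh1 that is needed for mesoderm to leave the epithelium in the embryo. It was at 2.43 and 2.67 CPM in ES, 57 and 58.6 in HB, then 6.06 and 6.94 in HE1, then 3.41 and 2.63 in HE2, and lastly 2.37 and 1.75 in HP. The HE2 and ES libraries overlapped, with 1 HE2 library inside the range of ES and 1 above it. It rose by 4.50 on the log2 scale into HB (22.7-fold, SE 0.24, adjusted p = 8.33e-07), fell by 3.15 into HE1 (8.88-fold, SE 0.224, adjusted p = 1.27e-05), and fell by 1.10 from HE1 to HE2 (SE 0.222, adjusted p = 0.0157). The last of these calls was lost without HE1 replicate 2 (adjusted p = 0.069) and without HE2 replicate 2 (-0.91, adjusted p = 0.129), with little change in size in either case.

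The Snai1 window is shown because its upstream bases hold the same motif. Snai1 moved against Epcam at the first step, but both fell from HB to HE1 (-3.15 and -2.26). It covers chr2:167537945-167538194 (GRCm38.p6, plus strand), the 250 bases before the RefSeq start, with the motif in capitals.
Snai1: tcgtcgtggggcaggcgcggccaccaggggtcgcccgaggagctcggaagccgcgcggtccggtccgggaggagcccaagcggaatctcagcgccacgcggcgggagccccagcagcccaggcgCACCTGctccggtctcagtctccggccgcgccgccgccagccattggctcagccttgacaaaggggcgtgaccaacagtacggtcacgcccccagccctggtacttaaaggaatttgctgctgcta
There was 1 match, 126 bases before the start. The windows differed in base content, with 27 CG dinucleotides in the Snai1 window and 8 in that of Epcam, against a median of 6 over all windows. The windows of Vim, Twist1, and the 4 Zeb2 starts held no match of these letters.

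Snai2, which encodes SLUG, the second SNAIL family member of mesenchyme and neural crest, did not follow Snai1. It was at 0.479 and 0.545 CPM in ES, 0.43 and 0.563 in HB, then 2.86 and 4.59 in HE1, then 2.25 and 1.59 in HE2, and lastly 3.13 and 1.34 in HP. The ES and HB libraries overlapped and held 13 to 27 counts each, and every later library was higher. The change into HB was -0.03 (95% interval -1.24 to 1.18, adjusted p = 0.974), and the rise into HE1 was 2.90 on the log2 scale (7.45-fold, SE 0.532, adjusted p = 0.0026). Between HE1 and HP the value was -0.73 (adjusted p = 0.277), with overlapping libraries. It was -1.46 without HP replicate 1 and -0.23 without HP replicate 2.

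Twist1, a basic helix-loop-helix factor of mesoderm and its mesenchyme, was at 1.95 and 2.12 CPM in ES, 11.8 and 12.4 in HB, then 10.3 and 8.52 in HE1, then 5.24 and 4.22 in HE2, and lastly 1.44 and 4.23 in HP. It rose by 2.57 into HB (SE 0.431, adjusted p = 0.000911) and fell by 1.75 from HE1 to HP (SE 0.421, adjusted p = 0.0137) on the log2 scale. The HP libraries differed by 2.87-fold and overlapped with both HE2 and ES. The fall to HP was not called without HP replicate 1 (-1.14, adjusted p = 0.0575), and it was -2.69 without HP replicate 2.

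Zeb1 and Zeb2 are paired zinc finger and homeodomain repressors, and Zeb2 is also known for its part in hematopoietic development. Zeb1 was at 11.3 and 11.8 CPM in ES, 52.8 and 53.7 in HB, then 77.3 and 68.5 in HE1, then 48.7 and 26.7 in HE2, and lastly 24.8 and 31.6 in HP. Zeb2 was at 3.3 and 2.95 CPM in ES, 129 and 142 in HB, then 266 and 222 in HE1, then 234 and 245 in HE2, and lastly 223 and 267 in HP. Zeb1 thus peaked in HE1 and came down, while all Zeb2 libraries of HE1, HE2, and HP lay between 222 and 267 CPM. On the log2 scale Zeb1 rose by 2.21 into HB (SE 0.255, adjusted p = 8.27e-05) and fell by 1.37 from HE1 to HP (SE 0.247, adjusted p = 0.00329). Zeb2 rose by 5.43 into HB (43.2-fold, SE 0.189, adjusted p = 1.26e-07) and by 0.85 into HE1 (1.8-fold, adjusted p = 0.00251), which is under the 2-fold required of a call. From HE1 to HP the Zeb2 difference was 0.01, with a 95% interval of -0.33 to 0.34. An RNA from the opposite strand, Zeb2os, shares 653 exonic bases with Zeb2, and the counting kept the strands apart.

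By level per length, the leading factor changed with stage. In HB, Snai1 was at 35.7 ± 0.735 CPM per exonic kilobase, ahead of Twist1 at 7.42 ± 0.271, Zeb2 at 6.72 ± 0.453, Zeb1 at 5.19 ± 0.0612, and Snai2 at 0.246 ± 0.0467 (SD, n = 2). In HP, Zeb2 was at 12.1 ± 1.54, ahead of Zeb1 at 2.75 ± 0.474, Twist1 at 1.74 ± 1.21, Snai1 at 1.27 ± 0.272, and Snai2 at 1.1 ± 0.626. In ES all 5 were at or below 1.57 CPM per exonic kilobase. In HB the libraries of these factors did not overlap, whereas in HP those of Zeb1, Twist1, Snai1, and Snai2 overlapped with their neighbors in this order.

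Counting calls over the 10 genes (adjusted p under 0.05 and at least 2-fold), the first step had 7 higher and 2 lower. Of all tested genes, 11.5% were called higher and 17.3% lower from ES to HB. The median log2 fold change of the 10 was 2.76, against 0.00 over all tested genes. Cdh11, Snai1, and Zeb2 are also among the genes that the study linked to enhancers open before the gene is expressed in HB. That selection used expression in these same libraries, so their rise is not independent evidence of such a link.

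From HB to HE1, 2 of the 10 were called higher (Vim and Snai2) and 3 lower (Epcam, Cdh11, and Snai1), against 12.7% and 8.19% of all tested genes. Of the 3 cadherins, Cdh11 was the one that was called. Genes that rose together in HB thus parted in HE1, with Snai1 and Cdh11 down, Vim up, and Twist1 (-0.36, adjusted p = 0.514) and Zeb1 (0.45, adjusted p = 0.175) not called.

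From HE1 to HE2, 2 of the 10 were called lower (Cdh2 and Snai1) and 0 higher, against 5.39% and 3.26% of all tested genes. All 10 fold changes were below 0, from -1.80 for Cdh1 to -0.03 for Zeb2, with a median of -1.05 against -0.08 over all tested genes. The count of 2 depended on single libraries, since it was 0 without HE1 replicate 2 or without HE2 replicate 2 and 5 without HE1 replicate 1 or without HE2 replicate 1. The summed endothelial markers were 2962 CPM in HE2 replicate 1 and 1757 in HE2 replicate 2, and the part of that difference was not tested.

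From HE2 to HP, edgeR called 0 of the 10 genes in either direction, as it did 0% of all tested genes higher and 0% lower. At an unadjusted p under 0.05, 670 genes were higher and 1113 lower by edgeR, among them Vim (-0.72) and Snai1 (-0.54) on the lower side. By limma-voom 35 genes were called higher and 27 lower, by DESeq2 108 and 193, and by edgeR without the filter on low counts (39019 genes) 145 and 389, none of the 10 among them. The 95% intervals of the 10 differences were widest for Cdh1 (-1.53 to 1.63) and narrowest for Zeb2 (-0.30 to 0.37), so that a 2-fold change of Cdh1 was not detectable here.

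Across both of these steps, from HE1 to HP, 6 of the 10 were called lower (Cdh2, Cdh11, Vim, Snai1, Twist1, and Zeb1) and 0 higher, against 11.2% and 5.35% of all tested genes. The comparisons with HE1 share its libraries and are not independent of each other. Cdh1 (-1.76, adjusted p = 0.0956) and Epcam (-1.38, adjusted p = 0.0839) were not called, and without HE1 replicate 2 their values were -0.19 and -0.09. Their values were -2.33 and -2.30 without HP replicate 1, and -1.32 and -0.84 without HP replicate 2. Without HE1 replicate 1 both were called lower (-2.46, adjusted p = 0.0149, and -1.98, adjusted p = 0.00616), which made the count 8. The count was 5 without HE1 replicate 2, without either HB library, or without either HP library. Both were also called without the filter on low counts, and Cdh1 with only the 4 libraries compared (-1.82, adjusted p = 0.0372). Zeb2 was the exception among the factors raised in HB, in that its level in HP was that of HE1.

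**Figure D3:**
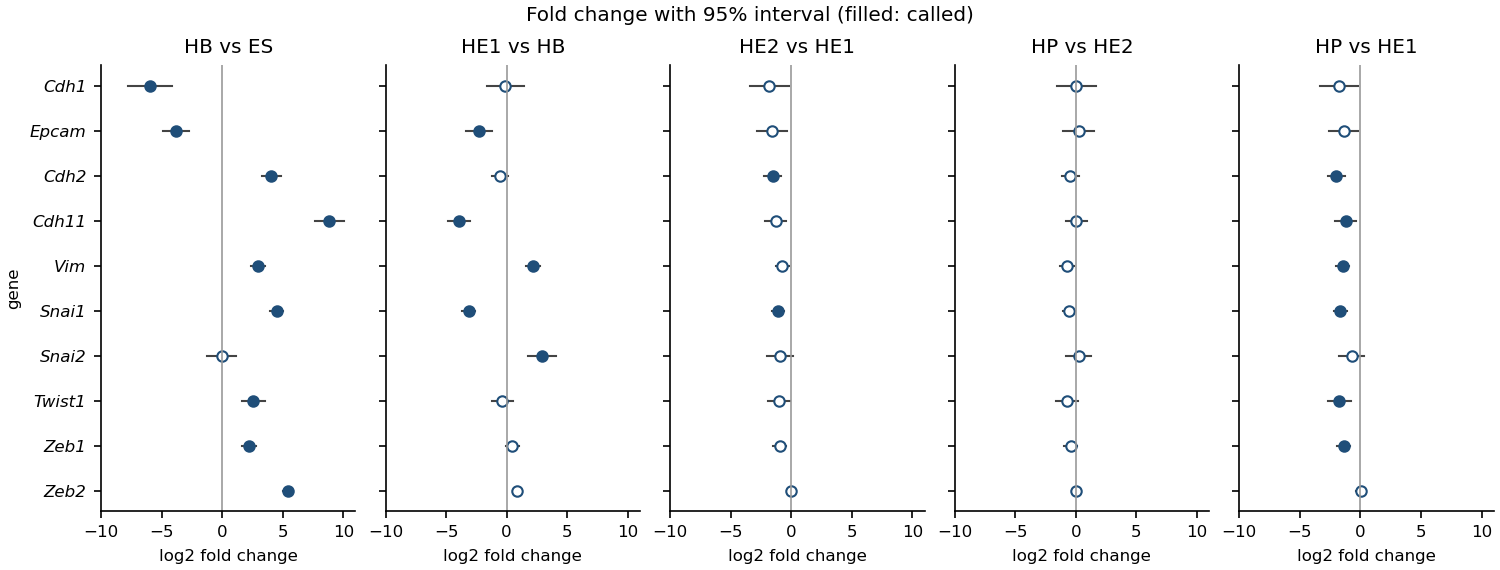
The log2 fold change (later over earlier stage) of each of the 10 genes in the 5 comparisons, with 95% intervals from the edgeR fit as lines. Filled circles are called (adjusted p under 0.05 and at least 2-fold), and the filled circles number 9, 5, 2, 0, and 6 from left to right.

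The 2 libraries of HE1 differed most in the epithelial pair. Cdh1 was at 9.8 CPM (233 counts) in replicate 1 and 48.1 CPM (1455 counts) in replicate 2, a log2 ratio of 2.29 with a 95% counting interval (exact Clopper-Pearson) of 2.09 to 2.50. Epcam was at 1.77 CPM (42 counts) and 6.67 CPM (202 counts), a log2 ratio of 1.88 with an interval of 1.43 to 2.43. Both differences exceed counting error, and they lie at or above those of 96.8% and 94.6% of all tested genes. The other 8 genes differed by less than 2-fold, with Cdh11 (0.86) and Cdh2 (0.79) next in line and Vim (-0.50), Twist1 (-0.27), and Zeb2 (-0.26) at the other end. Over all tested genes, 15.9% were at least 2-fold higher in replicate 2 and 5.37% at least 2-fold lower, so that these libraries differed widely beyond the 10 genes.

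Pluripotent markers moved with the epithelial pair in HE1. All 8 were at least 2-fold higher in replicate 2, with log2 ratios from 1.84 (Tfcp2l1) to 4.09 (Dppa5a). Pou5f1 was at 2.82 and 26.3 CPM, Nanog at 0.715 and 11.6, and Sox2 at 0.715 and 9.28. Set against their ES mean, Cdh1 was at 0.499% in replicate 1 and 2.45% in replicate 2, Epcam at 0.628% and 2.37%, and the median of the 8 markers at 0.244% and 2.55%. In replicate 2, Cdh1 and Epcam therefore sat at the same share of the ES level as the middle of the pluripotent markers, which ranged from 1.04% to 5.18%. In the HE2 and HP libraries Cdh1 and Epcam were at 0.278% to 0.835% of the ES mean, above the median of the markers in each library (0.0764% to 0.188%). The part of the pluripotent RNA in the level of Cdh1 and Epcam was not tested.

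**Figure D4:**
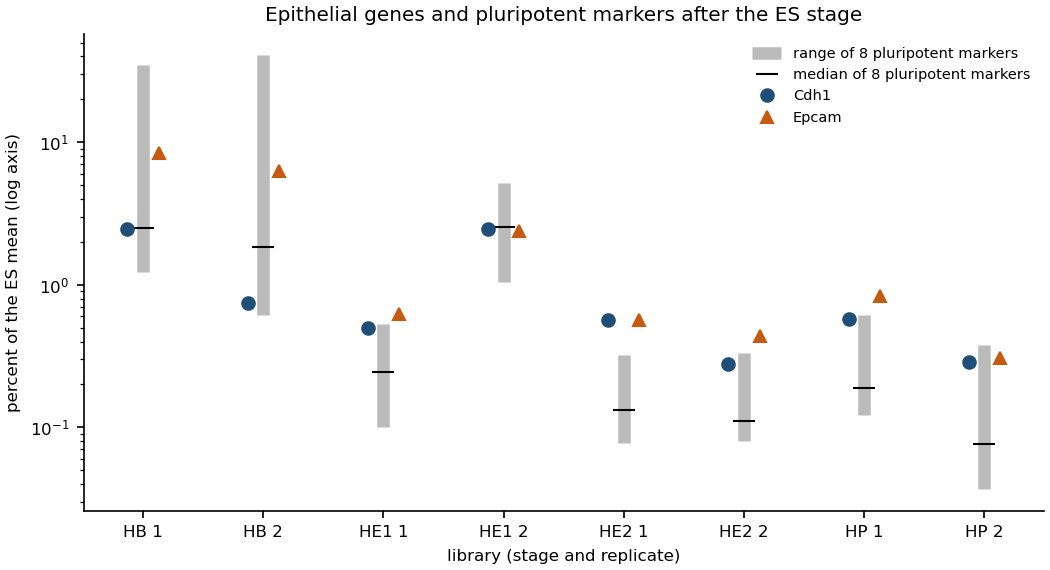
Level of Cdh1 (circles) and Epcam (triangles) in each library after ES as a percent of the ES mean (log axis), beside the range (gray bars) and median (ticks) of 8 pluripotent markers. In HE1 replicate 2 both genes and the marker median lie between 2.37% and 2.55%, and in HE1 replicate 1 both genes are at 0.628% or less.

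Other marker lists also differed between the HE1 libraries. Summed levels in replicates 1 and 2 were 4560.2 and 2755 CPM for endothelial, 286 and 158 for hematopoietic, and 237 and 160.3 for endoderm markers, all higher in replicate 1. They were 644 and 1024 CPM for cardiac and smooth muscle, 409 and 916 for mesenchymal stroma, 32.1 and 90.8 for neuroectoderm, and 16.1 and 27.6 for mesoderm markers, all higher in replicate 2. The ratio of the sums was widest for the pluripotent list, at 10.1-fold, and at most 2.83-fold for the rest. All 8 endothelial markers were higher in replicate 1, and 7 of the 8 cardiac and smooth muscle and 5 of the 6 mesoderm markers in replicate 2. Apart from the pluripotent list, the remaining lists were mixed. Of the 6 neuroectoderm markers 4 were at least 2-fold higher in replicate 2 (Sox1 at 0 counts and 2.15 CPM) and 2 at least 2-fold lower, Pax6 and Neurod1, and most of the sum was Tubb3 (29.2 and 73.6 CPM). Most of the difference in the stroma sum was Col1a1 (176 and 671 CPM), while Col1a2 (154 and 132 CPM) was lower in replicate 2. Most of that in the endoderm sum was Sox7 (161 and 87.7 CPM), while Amn (0.589 and 1.78 CPM) and Apoa1 (0.379 and 0.892 CPM) were higher in replicate 2 and Ttr was at 0 counts in both. Gata6 (63.6 and 62.7 CPM) held most of the rest of the endoderm sum, which thus rested on few of its markers. The part of these cell types in the values of the 10 genes was not tested.

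Part of the genes that fell with Cdh1 at the first step were also higher in HE1 replicate 2. This set was picked from these same data after these values were known. It can hold Cdh1 and the markers given above, so it is not independent of them. Of 1322 genes called at least 16-fold lower in HB than in ES, 603 (45.6%) were at least 2-fold higher in HE1 replicate 2 than in replicate 1, against 15.9% of all tested genes. Their median log2 ratio was 0.75, which is less than 2-fold, against -0.02. The share at least 2-fold lower was not counted.

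**Figure D5:**
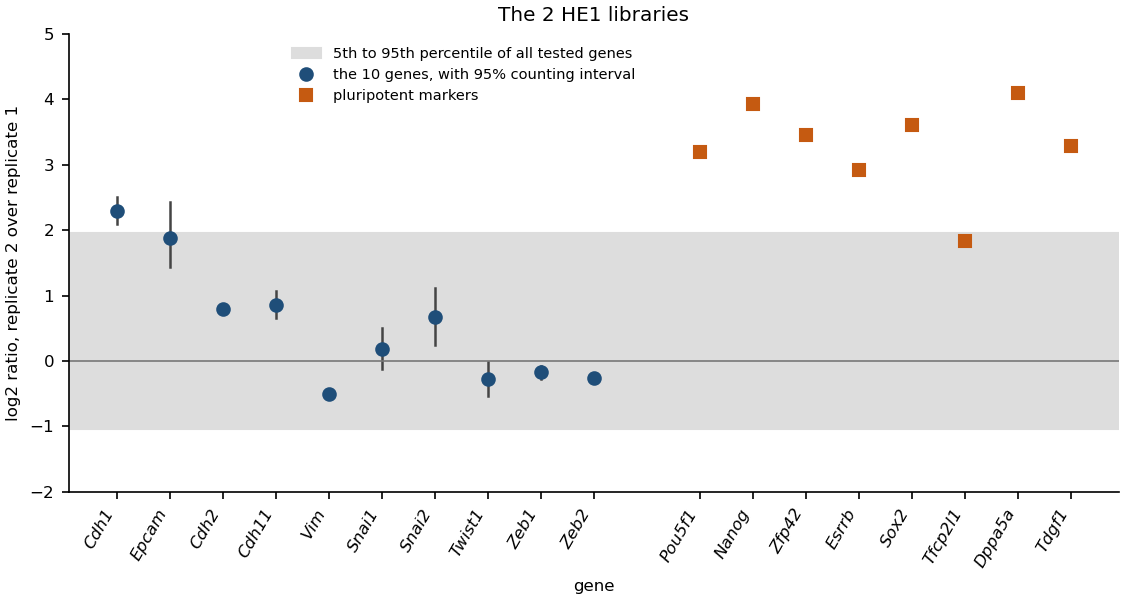
The log2 ratio of HE1 replicate 2 to replicate 1 for the 10 genes (circles, with 95% counting intervals) and for 8 pluripotent markers (squares), over a gray band from the 5th to the 95th percentile of all tested genes (-1.04 to 1.96). Cdh1 at 2.29 lies above the band, Epcam at 1.88 just inside it, and 7 of the 8 markers above it.

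The HB libraries also parted for Cdh1, at 48.8 and 14.6 CPM, while the other 9 genes agreed within 1.33-fold. The log2 ratio for Cdh1 was -1.73, and 98.4% of all tested genes had a ratio of that size or smaller in either direction. Of the 8 pluripotent markers, 7 were lower in replicate 2 as Cdh1 was, among them Sox2 (7.31 and 2.11 CPM), Nanog (15.2 and 9.52), and Pou5f1 (62.8 and 52.9). Their sum was 428 and 444 CPM because most of it came from Tdgf1 (305 and 353 CPM), the 1 marker that was higher. In HE2, Cdh1, Cdh2, and Cdh11 were each at least 2-fold lower in replicate 2, and 13.2% of all tested genes were too. In HP, Cdh1, Epcam, and Snai2 were at least 2-fold lower and Twist1 at least 2-fold higher in replicate 2, against 3.42% and 10.5% of all tested genes. The pluripotent markers were lower in replicate 2 for 5 of 8 in HE2 and 8 of 8 in HP, and their part in these values was not tested. The ES libraries agreed within 0.22 on the log2 scale for all 10 genes.

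Junction and keratin genes of epithelia fell with Cdh1 at the first step. Of 20 such genes, 15 were called lower from ES to HB and 0 higher (1 higher without ES replicate 2, HB replicate 1, or HE1 replicate 1), with a median log2 fold change of -2.91 against 0.00 over all tested genes, of which 17.3% were called lower and 11.5% higher. Cldn4, a tight junction claudin, went from 286 and 297 CPM to 5.52 and 2.03 (-6.28), and Cdh3, which encodes P-cadherin, from 204 and 213 to 5.49 and 4 (-5.46). From HB to HE1, 6 rose and 2 fell (median 0.57), against 12.7% and 8.19% of all tested genes, and both counts varied when single libraries were left out. Those that rose included Ocln (3.27 and 1.3 CPM in HB, 15.4 and 4.29 in HE1) and the keratin gene Krt18 (39.6 and 38.6 in HB, 86.1 and 239.9 in HE1), and the desmosome gene Dsp fell (320 and 392 to 57.2 and 85.3). In HP against HE1, 3 fell and 1 rose (median -0.82), against 11.2% and 5.35%. The 3 that fell numbered 10 without HE1 replicate 1 and 5 without either HB library. The gene that rose was Perp, of the desmosome (27.5 and 21.3 CPM in HE1, 88.9 and 87.4 in HE2, 126 and 89.9 in HP), so that junction genes did not move as 1 block after HB.

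Most regulators that maintain the epithelial state fell at the first step, and how many were called varied when single libraries were left out. Of 14, 13 were called lower from ES to HB and 0 higher (median -3.13), against 17.3% and 11.5% of all tested genes. Ovol2, a zinc finger repressor of Zeb genes, went from 4.26 and 3.79 CPM to 0.231 and 0.0563, and the splicing factor Esrp2 from 25.9 and 27 to 1.39 and 1.3. From HB to HE1, 4 fell and 1 rose (8.19% and 12.7% of all tested genes), that 1 being Esrp2 (3.49 and 7.93 CPM in HE1). Without HB replicate 1 the 4 numbered 1, without HE1 replicate 2 they numbered 6, and without HE1 replicate 1 the count of 1 was 2. Between the HE1 libraries, 10 of the 14 were at least 2-fold higher in replicate 2 and 0 at least 2-fold lower (median log2 ratio 1.53), against 15.9% and 5.37% of all tested genes, with Grhl2 at 1.18 and 5.65 CPM and Esrp1 at 1.22 and 5.61. The junction and keratin genes (10 of 20 higher and 1 lower, median 0.89) and the other transcription factors described below (6 of 13 higher and 0 lower, median 0.76) also had medians above the -0.02 of all tested genes, while the mesenchymal genes (2 of 20 and 0, median 0.19), cadherin partners (0 of 11 and 0, median -0.19), and other cadherins (3 of 13 and 1, median -0.06) had medians nearer 0. In HP against HE1, 6 fell and 0 rose (11.2% and 5.35% of all tested genes), but 1 fell and 1 rose without HE1 replicate 2, and 2 fell without either HP library.

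Mesenchymal genes moved in both directions at the first step. Of 20, 6 were called higher and 5 lower from ES to HB, against 11.5% and 17.3% of all tested genes, with a median of -0.16 against 0.00. The growth factor receptor gene Pdgfra rose from 2.13 and 2.12 CPM to 193 and 196 (6.51 on the log2 scale), while Ddr2, a collagen receptor gene, fell from 21 and 20.5 to 0.298 and 0.0563 (-6.90). The larger step was HB to HE1, with 13 higher and 2 lower (12.7% and 8.19% of all tested genes) and a median of 2.29 against 0.04. Acta2, which encodes smooth muscle actin, rose from 2.25 and 2.06 CPM to 403 and 569, and Col3a1 from 0.264 and 0.141 to 28.8 and 32.5. In HP, 10 were called lower than in HE1 and 0 higher (11.2% and 5.35% of all tested genes), with Fbn1 at 1207 and 759 CPM in HE1 and 48.3 and 133 in HP. The list therefore differed from Vim at the first step and went with it from HB to HE1 and from HE1 to HP.

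Of 13 other transcription factors known in epithelial to mesenchymal transition, 6 were called higher and 2 lower from ES to HB, against 11.5% and 17.3% of all tested genes, with a median of 1.58 against 0.00. Sox9 rose from 0.0887 and 0.287 CPM to 23 and 24.2, and Gsc, a homeobox gene of the primitive streak, from 0.355 and 0.488 to 27.4 and 26.1. Both fell again in HE1, Gsc to 0.0841 and 0.462 CPM and Sox9 to 1.14 and 4.23, in which they resembled Snai1 (1 of the 13 rose and 3 fell at that step, against 12.7% and 8.19% of all tested genes). Tcf4 rose into HE1, from 103 and 89.1 CPM to 278 and 296. It was the 1 factor called higher at that step, a count that was 2 without HB replicate 1, HE1 replicate 1, or either HE2 library. Between HE1 and HP, 7 were called lower and 0 higher (11.2% and 5.35% of all tested genes), among them Foxc2 (10.9 and 10.7 to 0.16 and 0.54 CPM), and 3 were called lower without HE1 replicate 2 or without either HP library.

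Partners of cadherins were called at the first step about as often as all tested genes. Of 11 catenin, nectin, and linker genes, 3 fell from ES to HB and 0 rose, against 17.3% and 11.5%, the widest change being that of Jup (plakoglobin, 215 and 222 to 78 and 81.4 CPM, -1.46). From HB to HE1, 4 rose and 1 fell, against 12.7% and 8.19%. Jup rose to 389 and 394 CPM, above its ES level, so that it did not track Cdh1. The count of 4 was 2 without HE1 replicate 1 or without any 1 of the ES and HB libraries. From HE1 to HP 5 fell and 0 rose (11.2% and 5.35% of all tested genes), and 3 fell without either HP library, with Afdn at 493 and 449 CPM in HE1 and 92.1 and 127 in HP.

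Other classical cadherins changed in both directions at the first step. Of 16, 13 were tested (Cdh7, Cdh12, and Cdh19 did not pass the filter), and 7 rose and 5 fell from ES to HB, against 11.5% and 17.3% of all tested genes. The 5 numbered 2 or 3 without any 1 of the ES or HB libraries. Cdh8 (0.16 and 0.0861 to 12.2 and 15.2 CPM) and Cdh20 (0.0887 and 0.0287 to 6.61 and 9.3 CPM) rose, and both fell again in HE1, where Cdh20 was at 0 counts in both libraries. They shared this rise and fall with Cdh11. Cdh5, which encodes the endothelial VE-cadherin, rose from 0.816 and 0.516 CPM in ES to 109 and 87.6 in HB (7.15 on the log2 scale) and to 1431 and 798 in HE1 (3.50), and fell to 118 and 179 in HP (-2.91 from HE1). From HB to HE1 2 rose and 4 fell (12.7% and 8.19% of all tested genes), and the 2 that rose numbered 1 without HB replicate 2 or HE1 replicate 2. From HE1 to HP 4 fell and 0 rose (11.2% and 5.35%).

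From HE1 to HE2 the counts of every list rested on single libraries, as that of the 10 genes did. The genes called lower were 4 of the junction and keratin list, 5 of the epithelial regulators, 4 of the mesenchymal genes, 2 of the other factors, 2 of the cadherin partners, and 2 of the other cadherins, and 1 in all was called higher, against 5.39% and 3.26% of all tested genes. When single libraries were left out, the counts of genes called lower ranged from 0 to 11, 0 to 10, 0 to 9, 0 to 7, 0 to 4, and 1 to 5. Without HE1 replicate 2 they were 1, 0, 0, 1, 0, and 1, and without HE2 replicate 2 they were 0, 0, 1, 0, 1, and 1. The highest counts of the junction genes, epithelial regulators, and other factors came without HE1 replicate 1, and those of the mesenchymal genes, cadherin partners, and other cadherins without HE2 replicate 1. Of the other factors, 0 were called higher, and 1 was without either ES library, either HB library, HE1 replicate 1, or HE2 replicate 1. From HE2 to HP, edgeR called 0 genes of any list, and between 1 and 6 genes of each list were called lower without HE2 replicate 2.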

How the data were processed

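Nuclear RNA-seq libraries of 5 stages were analysed, 2 per stage. The authors removed rRNA reads, trimmed with Trimmomatic, used Hisat2 (v2.2.1) for alignment to mm10, and deposited raw counts per gene. Per the file headers, read pairs were counted on exons of Ensembl genes by featureCounts in the reverse-stranded mode, and on each gene that they overlapped. The deposited matrix of the authors holds 1 score per gene and stage, their averaged CPM value, and served to find the genes and as an alternative for levels. The 10 genes and all lists were chosen with earlier results of these data known.

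The tests were run in edgeR (v4.0.16) under R (v4.3.3). Genes were filtered with filterByExpr, scaled by TMM (factors 0.9545 to 1.132), and tested with the quasi-likelihood F test on all 10 libraries, stage being the only term (5 residual degrees of freedom), with Benjamini-Hochberg adjustment over 22596 genes. Genes were called where the adjusted p-value was under 0.05 and the fold change 2 or more. The SE is the size of the log2 fold change over the root of F. Log2 CPM used a prior count of 2. No 2 libraries held identical counts (0 pairs). Alternatives were DESeq2 (v1.42.0), limma-voom (limma v3.58.1), total counts, no filter, the genes of the matrix, only the 4 libraries compared, a replicate block, other fold limits, and leaving out each library, in which case a lone library was taken to vary like the others. The fit was also run on simulated counts without an outlying library, and that run does not bear on the difference between the HE1 libraries. Of each list, at most 3 called genes per direction with the widest change and a mean of at least 1 CPM could be named. Symbols and exonic lengths came from GENCODE release M21 and the count tables, and promoter windows from RefSeq (GRCm38.p6), which gave 8 windows for 5 of the 10 genes. No window of the other 5 was used here. The rest was done in Python (v3.11.15) with pandas (v2.3.3), scipy (v1.17.1), and matplotlib (v3.10.9).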

Additional observations from a re-analysis of the deposited data

How the results depend on the processing

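Of 900 fold changes of the 10 genes under the alternatives, 843 kept their direction and their side of the threshold, 22 became calls, 11 lost a call, and 24 changed sign, none of the last being called. From HE1 to HE2 the 2 genes called lower numbered 4 with the genes of the matrix, 5 without a filter, 0 with the 4 libraries compared, 0 at a minimum of 4-fold, and 0 to 5 with single libraries left out. From HE1 to HP the 6 became 0 at a minimum of 4-fold. With total counts the HE1 ratio of Cdh1 was 2.53. Snai2 from ES to HB was 0.04 with total counts and -0.24 to 0.17 with single libraries left out. Zeb2 from HE1 to HP was -0.04 with the genes of the matrix, -0.04 with the 4 libraries compared, -0.01 with total counts, and -0.12 to 0.17 with single libraries left out. Leaving out single libraries gave -1.69 to 0.93 for Cdh1 from HB to HE1 and -0.16 to 0.14 for Zeb2 from HE1 to HE2. From HE2 to HP it gave -0.56 to 0.65 for Cdh1, -0.72 to 0.73 for Epcam, -0.87 to 0.16 for Cdh2, -0.55 to 0.65 for Cdh11, -0.53 to 0.70 for Snai2, -0.79 to 0.07 for Zeb1, and -0.10 to 0.16 for Zeb2. The causes were not tested, beyond the smaller number of libraries or genes in a fit.

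Whether libraries with the same replicate number belong together is not known. The correlation of deviations from the stage mean lay between -0.316 and 0.213 over 10 pairs of stages and was over 0.1 in 2. Such values cannot settle it, since replicate numbers may be exchanged between stages. With a replicate block, 49 of 50 fold changes kept direction and call, no call changed, and Cdh1 from HB to HE1 became 0.07. Because correlations were negative, a crossed replicate block (replicates of HE1 and HP exchanged) was added after seeing the data, and it gave 3 calls from HE1 to HE2 in place of 2 and otherwise the same counts. With 2 libraries per stage, changes under 2-fold of Cdh1, Epcam, and Snai2 were beyond the precision of these data.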

Other observations

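The genes whose log2 CPM ran most alike with each of 5 of the genes over the 10 libraries were sought among 16281 tested genes with a mean of at least 1 CPM. The libraries share stage and depth, so these values are descriptions. For Cdh1 they were Adgrv1 (Pearson's r 0.9959), Gm10323 (0.9931), and Gm13147 (0.9930), and for Epcam Spint1 (0.9968) and Spint2 (0.9954), which encode inhibitors of epithelial surface proteases, and Ell3 (0.9949). For Cdh2 they were Samd5 (0.9926), Zfp703 (0.9811), and Zim1 (0.9804), for Cdh11 Daam2 (0.9937), Crb2 (0.9917), and Gpc6 (0.9912), and for Vim Plscr3 (0.9963), Tspan18 (0.9950), and Adgra2 (0.9950). Among the 10 genes themselves, Cdh1 ran with Epcam (0.95) and against Zeb2 (-0.96) and Vim (-0.87), whereas its value with Snai1 was -0.10. Cdh2 ran with Cdh11 (0.93), Zeb1 (0.92), Twist1 (0.89), and Snai1 (0.80).

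In HE2 and HP, Cdh1 and Cdh11 moved in step between libraries, and in HE2 Cdh2 did too (log2 ratio to Cdh1 of 2.20 and 2.19). Their log2 ratio per exonic kilobase was -1.29 and -1.28 in HE2 and -1.29 and -1.27 in HP, although both genes were close to 2-fold higher in replicate 1 of each stage. In the HP libraries the summed markers of mesenchymal stroma were 748 and 403 CPM and those of cardiac and smooth muscle 762 and 366, also higher in replicate 1, and in the HE2 libraries they were 521 and 423 and 659 and 408. In HP the muscle sum was set by Acta2 (529 and 249 CPM), Tagln (219 and 108 CPM), and Cnn1 (10.9 and 4.61 CPM), while the 5 cardiac markers were higher in replicate 2, all of them at 2.8 CPM or less. Other sums were also higher in replicate 1, in HP those of the pluripotent (10.5 and 3.72 CPM), mesoderm (6.87 and 5.02), hematopoietic (1179.9 and 988), and neuroectoderm lists (25.2 and 24.4), and in HE2 those of the endothelial (2962 and 1757), endoderm (85.4 and 29.1), mesoderm (9.54 and 4.38), neuroectoderm (29 and 20.7), and pluripotent lists (5.79 and 4.92). The endothelial and endoderm sums in HP and the hematopoietic sum in HE2 were lower in replicate 1. Most of the endoderm sum in HE2 was Sox7 (54 and 13.8 CPM) and Gata6 (26.3 and 12.5 CPM). The part of these cell types in the Cdh1 and Cdh11 values was not tested.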
